A study of Mus musculus with 72 samples.

Results

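The genes described here are 38 genes of the sarcomere, the contractile unit of striated muscle, and of its Z-disc, in the hearts of adult mice. They were chosen by name, from a fixed list of mouse symbols, and all 38 were found by their Entrez identifiers among the 24237 genes of the count table. RNA was sequenced in 72 libraries of heart tissue dissected into ventricles and the right and left atria, with 3 libraries from each sex under each of 4 conditions. The conditions were naïve Ahr+/+ mice, Ahr-/- mice, and Ahr+/+ mice exposed in utero to low-dose (0.1 µg/kg) or high-dose (1 µg/kg) TCDD. All mice were of the C57BL/6J background, into which the Ahr-/- line had been crossed by the study's methods. Each genotype was bred from parents of that genotype, so Ahr-/- mice were not littermates of Ahr+/+ mice. TCDD, a dioxin and a potent ligand of the aryl hydrocarbon receptor (AHR), was fed to the pregnant dam by gavage 3 times. The labels place the first dose at day 13.5 of gestation, the next at 15.5 and the last at 18.5, and the study's methods begin earlier. The hearts were taken at 9 months of age by the labels and slightly later by the study's methods. Ahr-/- mice lacked the receptor in the whole body from conception, in the dam as well as in the embryo, and were not exposed to TCDD. By the study's methods, Ahr+/+ dams were gavaged with either TCDD or its corn oil vehicle, and Ahr-/- dams were left untreated. Ahr-/- and naïve mice may thus differ in gavage, vehicle and breeding line as well as in *Ahr* genotype. The labels name TCDD as the treatment of every sample, so naïve mice were recognised by the control mark. The labels also call the cell type cardiomyocytes, but the material was whole dissected chambers.

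A sarcomere runs between neighbouring Z-discs. Thin filaments of actin, wound with tropomyosin and carrying the troponin complex, are anchored in the Z-disc by alpha-actinin and slide past thick filaments of myosin, whose centres are crosslinked in the M-band; calcium binding to troponin C lets the filaments engage. Titin spans the distance from Z-disc to M-band as an elastic scaffold, and many Z-disc proteins of the heart act both as crosslinks and as sensors of stretch. Mutations in several of these genes are known causes of hypertrophic and dilated cardiomyopathy.

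Values are CPM, a gene's counts per 1000000 counts of its library, and the libraries held 11873417 to 28789382 counts. Fold changes come from edgeR fits with TMM scaling, are given as log2 ± standard error, and were called at a Benjamini-Hochberg adjusted p under 0.05 over all genes tested; n was 3 libraries a group, from separate mice by the study's methods. TCDD was given to the dam, and the study's methods do not give the number of dams or litters behind a group. Mice of a group may therefore be siblings, which the standard errors take no account of. Before any result, the libraries were set against their labels. Of 72 libraries, 19 went against theirs: 15 by *Myl4*, an atrial myosin light chain, and 8 by sex-linked genes, with 4 by both. Among libraries labelled atrium, 8 held 2.21 to 48.7 CPM of *Myl4* against 620.5 to 5196 CPM in the other 40, and among those labelled ventricle, 7 held 167 to 3533 CPM against 0.626 to 93.3 CPM in the other 17. Of the 19, 12 were numbered above 48: all 4 of those labelled male left atrium held *Myl4* at 2.21 to 4.57 CPM, all 4 labelled male ventricle held it at 704 to 3533 CPM and went against their sex, and all 4 labelled female right atrium went against their sex alone. In female ventricle only library 35, a naïve one with 193 CPM of *Myl4*, was among the 19. Neither *Myl4* nor sex-linked genes tell the right atrium from the left, so a library that matched its label may come from the other atrium. Results were computed with and without the 19 libraries. *Ahr*, the targeted gene, was lower in Ahr-/- hearts but still read, at 2.00 to 9.23 CPM (median 5.05) in 18 libraries against 8.59 to 30.8 CPM (median 14.2) in 18 naïve ones, and 4.67 to 20.1 CPM in the 36 TCDD libraries.

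In the 4 naïve ventricle libraries that matched their labels, levels were compared between genes as CPM per kilobase of coding exons. Thin filament genes held the first 5 places: *Actc1*, cardiac alpha-actin, stood at 7286 ± 2839 (mean ± SD, n = 4), *Tnnt2*, cardiac troponin T, at 5697 ± 590.2, *Tpm1*, alpha-tropomyosin, at 5171 ± 898, *Tnni3*, cardiac troponin I, at 4568 ± 864, and *Tnnc1*, cardiac troponin C, at 3073 ± 455 CPM per kilobase. Neighbours in that order overlapped in their ranges. They were followed by the small chaperone *Cryab* at 1700.5 ± 219, by *Tcap*, the cap of titin at the Z-disc, at 1561 ± 515, and by *Csrp3*, muscle LIM protein, at 1128 ± 205 CPM per kilobase. Isoforms best known from skeletal muscle were near the bottom of the order. *Tnnt1* stood at 10.7 ± 3.99, *Tpm2* at 8.83 ± 2.83, and *Tnni1* at 0.570 ± 0.682 CPM per kilobase. *Myoz1*, a gene of fast muscle, had 0 counts in all 4. *Ttn*, the longest gene, ranked 24th at 75.6 ± 24.6 CPM per kilobase. *Myom2* varied most among the well-expressed genes, at 651 ± 515 CPM per kilobase, with 1 naïve male library at 1416 and the lowest at 346.

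The question put to each condition was whether loss of the receptor or exposure before birth had left a change in the adult heart. The ventricles of females exposed to high-dose TCDD were the only group, of 18 compared with naïve libraries, in which any of these genes passed the test: 16 rose and 3 fell among the 36 that could be tested, against 12.2% of all 14006 tested genes called higher and 11.4% called lower. All 8 thin filament genes tested rose, as did *Des* and *Cryab*, 5 of 14 Z-disc genes and 1 of 6 thick filament and M-band genes; the 3 that fell were *Nebl*, *Trim63* and *Xirp2*. The median log2 fold change was 0.30 over the 36 genes and 0.01 over all genes. Of the 3 genes grouped here under thin filament length, *Nebl* fell and *Lmod2* and *Tmod1* did not pass. *Tnni1* and *Myoz1* had too few counts in these ventricles to be tested. In tissue, more cells of a type and more RNA of a gene in each cell cannot be told apart. Together the 38 genes took 6.46% to 8.14% of all counts in the high-dose libraries and 5.01% to 5.66% in the naïve ones; Ahr-/- libraries, at 5.68% to 7.18%, and low-dose ones, at 5.76% to 7.47%, also lay above the naïve range.

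The largest change among the 36 was in *Tnnc1*, whose product binds the calcium that starts contraction. It stood at 4548, 2471 and 4100.4 CPM in the 3 high-dose libraries against 1250.0, 1397 and 1297 CPM in the 3 naïve ones (log2 fold change 1.69 ± 0.24, adjusted p = 0.00114), a 3.23-fold rise. The lowest high-dose library lay well above the highest naïve one. *Tnni3*, the inhibitory subunit of the same complex, stood at 8629, 7332 and 8624 CPM in the 3 high-dose libraries against 3532, 3535 and 4736 CPM in the 3 naïve ones (log2 fold change 1.23 ± 0.21, adjusted p = 0.00181). *Tnnt2*, which ties the complex to tropomyosin, stood at 7656, 6254 and 7926 CPM in the 3 high-dose libraries against 4636, 4964 and 5007 CPM in the 3 naïve ones (log2 fold change 0.77 ± 0.18, adjusted p = 0.0101). All 3 subunits of the cardiac troponin complex were thus higher in every high-dose library than in any naïve one. *Actc1* stood at 21317, 13422 and 16835 CPM in the 3 high-dose libraries against 9074, 9821 and 7762 CPM in the 3 naïve ones (log2 fold change 1.14 ± 0.20, adjusted p = 0.00196); its coding sequence is close to those of *Acta1* and *Acta2*, and how reads shared by them were counted is not given in the sources used here. *Tpm1* stood at 13891, 10127 and 11834 CPM in the 3 high-dose libraries against 6855, 8072 and 7701 CPM in the 3 naïve ones (log2 fold change 0.84 ± 0.18, adjusted p = 0.00671). The other tropomyosins were far lower. *Tpm2*, beta-tropomyosin, stood at 26.8, 18.2 and 18.1 CPM in the 3 high-dose libraries against 16.6, 12.5 and 8.93 CPM in the 3 naïve ones (log2 fold change 0.93 ± 0.21, adjusted p = 0.00721). *Tnnt1*, the slow skeletal troponin T, stood at 16.4, 14.3 and 13.0 CPM in the 3 high-dose libraries against 10.2, 10.9 and 9.59 CPM in the 3 naïve ones (log2 fold change 0.68 ± 0.17, adjusted p = 0.0126). Groups did not overlap for either. *Tpm3*, a tropomyosin of slow muscle and of non-muscle cells with processed copies in the genome, stood at 75.1, 57.2 and 54.8 CPM in the 3 high-dose libraries against 55.3, 49.5 and 50.4 CPM in the 3 naïve ones (log2 fold change 0.44 ± 0.14, adjusted p = 0.0349), and there 1 high-dose library lay within the naïve range.

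At the Z-disc, *Tcap*, which caps the ends of titin, had the smallest p of all 36 genes. It stood at 1610.5, 1506 and 1496 CPM in the 3 high-dose libraries against 945, 929 and 773 CPM in the 3 naïve ones (log2 fold change 0.99 ± 0.13, adjusted p = 0.000696), with little spread within either group. *Actn2*, the alpha-actinin that crosslinks thin filaments at the Z-disc, stood at 2065, 1666 and 2039.6 CPM in the 3 high-dose libraries against 1109, 1221 and 1135 CPM in the 3 naïve ones (log2 fold change 0.93 ± 0.16, adjusted p = 0.00225). *Csrp3*, a LIM protein linked to stretch sensing, stood at 851, 833 and 722 CPM in the 3 high-dose libraries against 526, 507 and 626 CPM in the 3 naïve ones (log2 fold change 0.70 ± 0.15, adjusted p = 0.00548). For all 3 genes the high-dose and naïve libraries did not overlap. *Mypn*, myopalladin, stood at 143, 144 and 130.5 CPM in the 3 high-dose libraries against 109, 124 and 115 CPM in the 3 naïve ones (log2 fold change 0.44 ± 0.13, adjusted p = 0.025). *Nexn*, an actin-binding protein of the Z-disc, stood at 1012, 967 and 731 CPM in the 3 high-dose libraries against 729, 743 and 716 CPM in the 3 naïve ones (log2 fold change 0.47 ± 0.12, adjusted p = 0.0159), and its lowest high-dose library was within the naïve range; with a trend in GC content removed it was higher still (0.95 ± 0.13, adjusted p = 0.000812). *Des*, desmin, the intermediate filament that ties Z-discs to each other, stood at 1420.1, 1182 and 1149 CPM in the 3 high-dose libraries against 884, 953 and 873 CPM in the 3 naïve ones (log2 fold change 0.65 ± 0.13, adjusted p = 0.00527). *Cryab*, alpha-B crystallin, the chaperone that protects desmin and titin, stood at 1562, 1445 and 1284 CPM in the 3 high-dose libraries against 915, 851 and 1019 CPM in the 3 naïve ones (log2 fold change 0.79 ± 0.15, adjusted p = 0.00281). Both lay higher in every high-dose library than in any naïve one.

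Of the thick filament and M-band genes, *Myh7b* passed the test. This myosin heavy chain of low abundance stood at 38.3, 29.3 and 43.2 CPM in the 3 high-dose libraries against 23.7, 13.6 and 20.2 CPM in the 3 naïve ones (log2 fold change 1.14 ± 0.24, adjusted p = 0.00762). *Ttn*, *Mybpc3*, *Myom1*, *Myom2* and *Myom3* had log2 fold changes between -0.34 and 0.30 and did not pass. *Ttn* was 4829, 5379 and 8007 CPM against 6569, 7154 and 12561 CPM, with 1 library of each group far above its companions.

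The 3 genes that fell do different things. *Nebl* encodes nebulette, a cardiac relative of nebulin that binds the thin filament at the Z-disc. It stood at 77.0, 93.6 and 53.1 CPM in the 3 high-dose libraries against 178, 178 and 141 CPM in the 3 naïve ones (log2 fold change -0.99 ± 0.14, adjusted p = 0.000819). *Trim63* encodes MuRF1, a ubiquitin ligase that marks thick filament proteins for degradation. It stood at 251, 271 and 233 CPM in the 3 high-dose libraries against 446, 457 and 382 CPM in the 3 naïve ones (log2 fold change -0.59 ± 0.12, adjusted p = 0.00402). *Xirp2*, a repeat protein that binds actin and alpha-actinin, stood at 606, 560.3 and 547 CPM in the 3 high-dose libraries against 901, 950.3 and 1024 CPM in the 3 naïve ones (log2 fold change -0.57 ± 0.14, adjusted p = 0.0119). Every high-dose library was below every naïve one for all 3. With a trend in GC content removed from each library, *Xirp2* no longer passed (-0.20 ± 0.16, adjusted p = 0.436) and *Nebl* passed at a smaller size (-0.52 ± 0.12, adjusted p = 0.00982). Just short of the threshold was *Pdlim5*, a PDZ and LIM domain protein, at 901, 1047 and 590.3 CPM in the 3 high-dose libraries against 1292, 1435 and 1078 CPM in the 3 naïve ones (log2 fold change -0.43 ± 0.15, adjusted p = 0.0518). *Lmod2*, which lengthens thin filaments, and *Myoz2*, a calcineurin-binding protein of the Z-disc, had log2 fold changes of -0.34 ± 0.13 and -0.37 ± 0.15 (adjusted p = 0.0686 and 0.096). The remaining 9 genes that did not pass, *Flnc*, *Trim54*, *Pdlim3*, *Tmod1*, *Trim55*, *Ldb3*, *Synpo2l*, *Xirp1* and *Myot*, lay between -0.13 and 0.33.

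**Figure D1:**
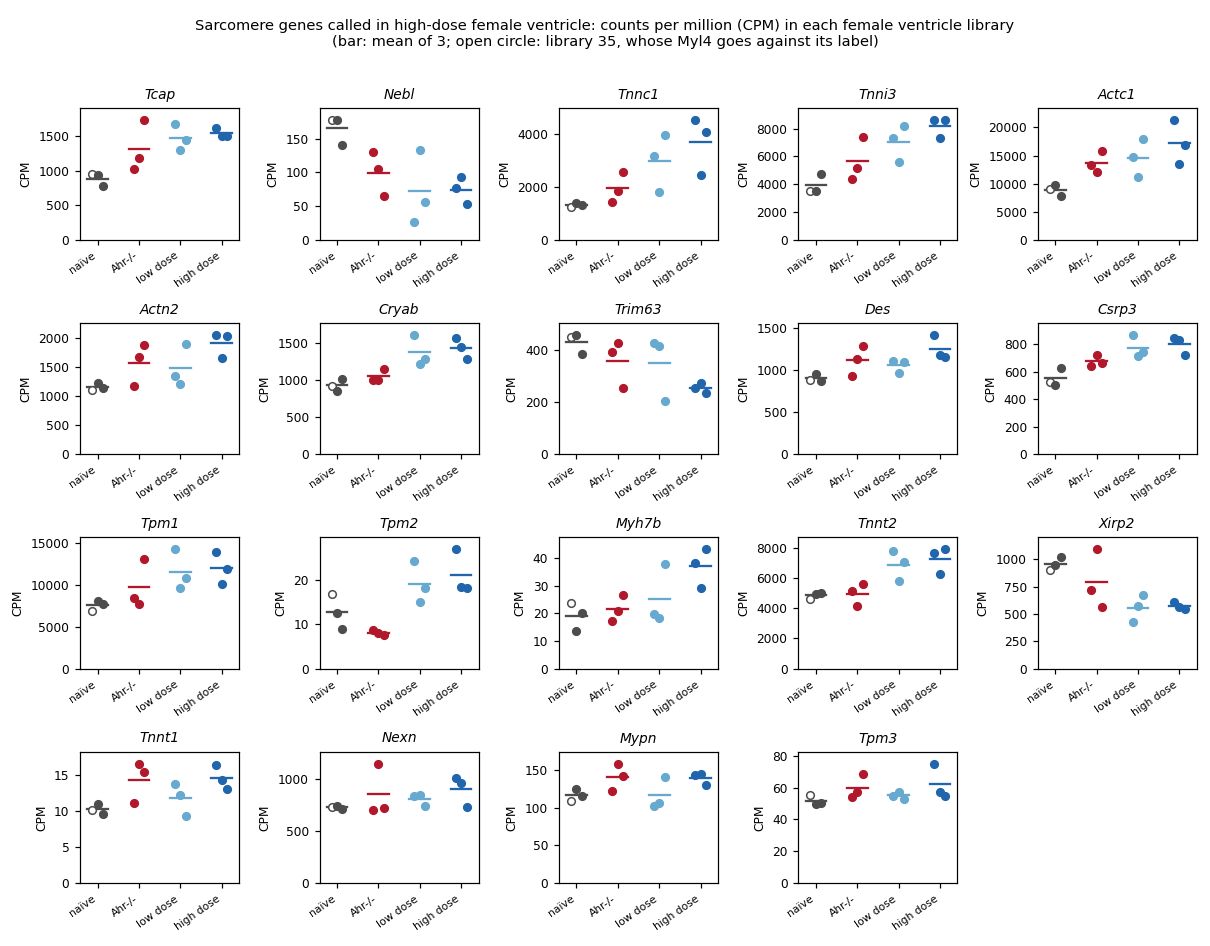
CPM of the 19 genes that passed the test in high-dose female ventricle, in each of the 12 female ventricle libraries. Each point is a library, each bar the mean of 3, every vertical axis starts at 0, and the open circle is library 35. *Tcap* lies at 1496 to 1610.5 CPM in the high-dose libraries, above all 3 naïve ones, and *Nebl* at 53.1 to 93.6 CPM, below all 3.

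RefSeq promoters (GRCm38.p6, the assembly of the mm10 build used by the authors; 250 bases before each start and 50 from it) were available for 30 of the 38 genes, 41 promoters in all, since 9 genes have several starts. Those without an entry are *Cryab*, *Myom2*, *Myot*, *Myoz1*, *Nexn*, *Tcap*, *Trim55* and *Xirp1*. On either strand, GCGTG, the core of the element bound by AHR with its partner, was found in 9 of these 41 promoters (22%) and in 32.4% of all 32851 promoters, those of *Actn2*, *Flnc*, *Ldb3*, *Pdlim5*, *Tnnt2* and *Tpm1* and 1 start of *Nebl* among them. TATAAA was found in 5 of these 41 promoters (12.2%) and in 13.6% of all 32851, CATTCC, the core of the MCAT element of muscle genes, in 12 of these 41 promoters (29.3%) and in 14.7% of all 32851, AGATAA, a form of the GATA site, in 6 of these 41 promoters (14.6%) and in 11.2% of all 32851, the MEF2 site in 5 of these 41 promoters (12.2%) and in 0.557% of all 32851, and the CArG box of serum response factor in 5 of these 41 promoters (12.2%) and in 1.63% of all 32851. A match is a description of letters only. Shown are 3 genes that rose in high-dose female ventricle in every alternative and the 3 that fell, 5′ to 3′, with the matches in capitals; *Tnni3* holds none.

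*Tnnc1*, chr14:31208062-31208361, plus strand: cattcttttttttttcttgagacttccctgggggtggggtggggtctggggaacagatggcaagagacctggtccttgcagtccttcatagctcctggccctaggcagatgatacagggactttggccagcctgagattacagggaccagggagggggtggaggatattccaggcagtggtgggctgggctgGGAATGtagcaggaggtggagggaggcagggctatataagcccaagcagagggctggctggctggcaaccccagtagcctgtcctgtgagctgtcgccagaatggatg
*Tnni3*, chr7:4522479-4522778, minus strand: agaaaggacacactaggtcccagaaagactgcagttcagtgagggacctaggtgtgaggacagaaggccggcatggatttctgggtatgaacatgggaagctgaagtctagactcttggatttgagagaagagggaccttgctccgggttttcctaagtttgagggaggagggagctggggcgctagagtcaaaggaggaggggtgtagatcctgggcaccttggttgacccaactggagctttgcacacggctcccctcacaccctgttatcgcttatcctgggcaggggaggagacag
*Actc1*, chr2:114052826-114053125, minus strand: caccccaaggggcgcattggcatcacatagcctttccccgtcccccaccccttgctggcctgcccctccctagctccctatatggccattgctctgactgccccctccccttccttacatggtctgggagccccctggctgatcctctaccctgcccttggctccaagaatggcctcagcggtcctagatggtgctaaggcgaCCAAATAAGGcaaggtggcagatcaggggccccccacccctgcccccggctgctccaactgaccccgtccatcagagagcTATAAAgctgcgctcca
*Nebl*, chr2:17731085-17731384, minus strand: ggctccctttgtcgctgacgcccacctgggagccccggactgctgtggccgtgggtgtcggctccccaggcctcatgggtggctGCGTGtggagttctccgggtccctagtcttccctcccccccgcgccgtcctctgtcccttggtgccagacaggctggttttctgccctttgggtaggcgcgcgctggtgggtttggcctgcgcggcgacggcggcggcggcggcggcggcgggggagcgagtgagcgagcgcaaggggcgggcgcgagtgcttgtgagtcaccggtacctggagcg
*Trim63*, chr4:134314870-134315169, plus strand: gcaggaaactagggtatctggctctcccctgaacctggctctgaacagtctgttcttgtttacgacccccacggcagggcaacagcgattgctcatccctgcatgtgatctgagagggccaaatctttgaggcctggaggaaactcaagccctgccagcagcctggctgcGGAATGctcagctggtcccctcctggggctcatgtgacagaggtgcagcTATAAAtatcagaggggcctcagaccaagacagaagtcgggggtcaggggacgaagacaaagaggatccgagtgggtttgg
*Xirp2*, chr2:67445752-67446051, plus strand: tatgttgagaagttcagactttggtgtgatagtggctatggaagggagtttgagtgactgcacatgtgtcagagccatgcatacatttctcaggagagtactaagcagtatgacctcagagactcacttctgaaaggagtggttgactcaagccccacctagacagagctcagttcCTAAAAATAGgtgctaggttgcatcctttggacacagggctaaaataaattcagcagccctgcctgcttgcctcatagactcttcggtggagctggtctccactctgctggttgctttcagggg

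The *Tnnc1* promoter thus holds the MCAT core and that of *Actc1* a CArG box and a TATA box, both among the genes that rose. Among those that fell, *Trim63* holds a TATA box and the MCAT core, *Xirp2* a MEF2 site, and the *Nebl* start shown, which is the one farthest upstream of its 4, holds GCGTG. The other 3 starts of *Nebl* do not hold it: 1 has the MCAT core and the GATA word, 1 the GATA word and 1 a CArG box. The counts do not separate the starts of *Nebl*. No match says only that these letters are not in this window.

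Several measures moved with this result, and their part in it was not tested. The summed level of 4 cardiomyocyte markers was 59208 to 66181 CPM in the high-dose libraries and 48741 to 53294 CPM in the naïve ones. *Myh6* was called higher and *Ryr2* and *Pln* were called lower. *Myh6* is itself a sarcomere gene. It alone held 36697, 29407 and 37950 CPM in the high-dose libraries and 18436, 19963 and 20402 CPM in the naïve ones. This sum is therefore not a measure apart from the sarcomere genes. For 3 ventricular markers the sum was 16663 to 18375 against 11784 to 13993 CPM. All 3 are sarcomere genes, and *Myl3* and *Myh7* were called higher. *Myl2* was not called and lay lower, at 3966, 4236 and 3895 CPM against 4449, 4845 and 5376 CPM. For 6 fibroblast markers the sum was 1114 to 1259 against 1288 to 1884 CPM, with 1 called higher and 2 lower. Smooth muscle markers summed to 246 to 298 against 147 to 286 CPM (2 of 4 called higher), endothelial markers to 735 to 879 against 679.8 to 814 CPM (1 of 5 higher and 1 lower), macrophage and leukocyte markers to 116 to 226 against 148 to 217 CPM (1 of 4 higher), blood markers to 3710.5 to 4792 against 2977 to 5194 CPM (0 of 5), and skeletal muscle markers to 22.9 to 30.4 against 30.0 to 52.6 CPM (2 of 6 tested lower). Atrial markers summed to 30.5 to 65.2 against 57.3 to 587 CPM, the upper naïve value being that of library 35. Adipocyte markers summed to at most 5.22 CPM and lung markers to at most 0.358 CPM. Among skeletal markers 3 of 9, among adipocyte markers 3 of 4 and all 3 lung markers had too few counts to be tested. In each female ventricle group the library numbered above 48 also held far more counts of 1 gene without a symbol, 6.42% to 14.0% of its counts against 0.194% to 1.02% in the 8 libraries numbered up to 48. Libraries up to 48 alone gave 12 genes higher and 3 lower.

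The genes also differed in shape. Those called higher had 483 to 5823 coding bases (median 1069.5) and a transcript GC content of 40.2% to 61.3%, while those not called had 827 to 112076 bases (median 2505) and 45.8% to 59.9%. *Nebl* and *Nexn* had the lowest GC contents of the 36, 40.1% and 40.2%. With a trend in GC content removed from each library, an alternative chosen after the data were seen, 12 genes rose and 3 fell: *Des*, *Mypn*, *Tnnt1*, *Tnnt2* and *Xirp2* lost their calls, at log2 fold changes of 0.35, 0.26, 0.48, 0.51 and -0.20, and the genes that fell were *Nebl*, *Trim63* and *Pdlim5* (-0.51 ± 0.15, adjusted p = 0.0367 for *Pdlim5*). With library 35 left out, 11 rose and 3 fell, and with scaling by library size alone, which moved the median of all genes to -0.17, 11 rose and 4 fell. Fitting all 4 conditions together left 7 that rose and 0 that fell, out of 719 of all genes. *Tnnc1*, *Tnni3*, *Actc1*, *Tcap*, *Csrp3* and *Cryab* passed in all 16 alternatives (highest adjusted p = 0.0414), and all 19 genes kept their direction in each.

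**Figure D2:**
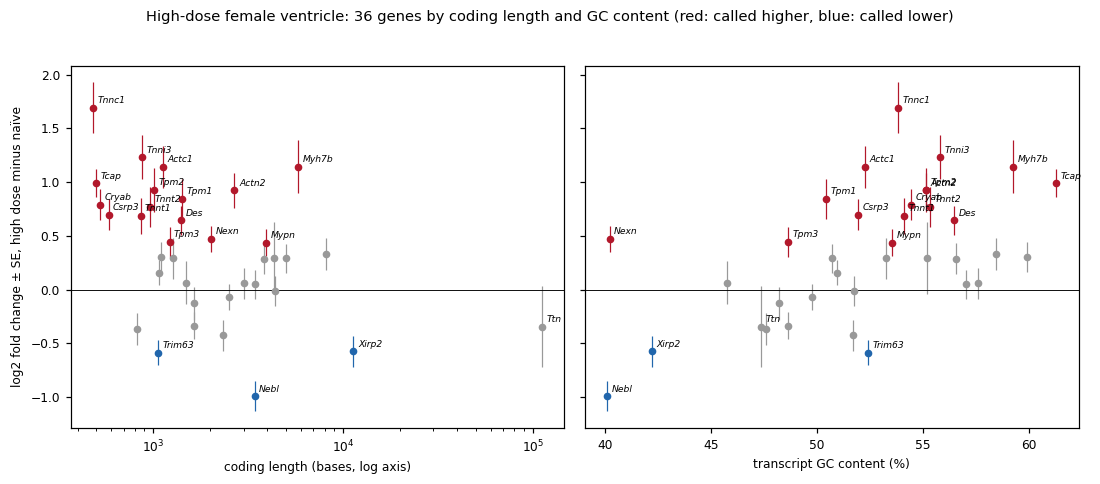
Log2 fold change ± standard error of 36 genes in high-dose female ventricle (3 high-dose against 3 naïve libraries), by coding length on a log axis and by transcript GC content. Red points were called higher, blue ones lower and grey ones not called; the short genes *Tnnc1* and *Tcap* lie at 1.69 and 0.99, and *Ttn*, the longest, at -0.34.

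A second list of 51 sarcomere genes held 44 that could be tested in these ventricles, and 13 of them rose and 2 fell (median log2 fold change 0.21), beside the 12.2% and 11.4% of all genes. Both cardiac myosin heavy chains were among those that rose: *Myh6* stood at 36697, 29407 and 37950.3 CPM against 18436, 19963 and 20402 CPM (1.01 ± 0.20, adjusted p = 0.00433) and *Myh7* at 9239.7, 8976 and 10138 CPM against 5473, 5509 and 6841 CPM (0.85 ± 0.19, adjusted p = 0.00827). Their sequences are close, and reads that fit both may have been split. *Myl3*, the ventricular essential light chain, stood at 4272, 3451 and 4342 CPM against 1862, 2129.6 and 1777 CPM (1.26 ± 0.17, adjusted p = 0.000784). The myosin chaperone *Unc45b*, the cochaperone *Bag3*, the small heat shock protein gene *Hspb1* and the M-band and myosin-associated genes *Speg*, *Obsl1* and *Mybpc2* also rose, by 0.54 to 1.02, as did *Pdlim1*, *Pdlim7*, *Ankrd23* and *Actn4*, by 0.36 to 0.89. *Dmd*, which encodes dystrophin, fell, from 268, 337 and 243 to 142, 174 and 129 CPM (-0.75 ± 0.13, adjusted p = 0.00242). *Fbxo32*, a ubiquitin ligase gene of muscle often measured beside *Trim63*, fell as well (-0.49 ± 0.14, adjusted p = 0.0216). In the other 17 comparisons with naïve libraries 0 of this list passed edgeR's test, and 0 of 47 (low-dose male left atrium, where 1.6% of all genes did) to 14 of 47 genes (Ahr-/- female left atrium, 13.7%) reached an unadjusted p under 0.05.

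In the other female ventricles no gene of the 38 passed in edgeR's test. In Ahr-/- females, 6 genes were higher and 2 lower at an unadjusted p under 0.05 among 36, where 9.45% of all genes reached it and 0.0216% passed after adjustment; DESeq2 called 1, and leaving out library 39 gave 5 in edgeR. *Actc1* was at 13221, 12101 and 15776 CPM against 9074, 9821 and 7762 CPM (log2 fold change 0.72 ± 0.20, adjusted p = 0.508). *Nebl* was at 130.0, 105 and 65.0 CPM against 178, 178 and 141 CPM (log2 fold change -0.67 ± 0.20, adjusted p = 0.515). In females exposed to the low dose, 10 were higher and 2 lower at an unadjusted p under 0.05 among 36, with 17.8% of all genes, and 0 passed after adjustment (0% of all genes), while DESeq2 called 8, all higher, and leaving out library 48 gave 2 in edgeR. *Tcap* was at 1679, 1291 and 1442 CPM against 945, 929 and 773 CPM (log2 fold change 0.92 ± 0.20, adjusted p = 0.14). *Tnnc1* was at 3184, 1817 and 3989 CPM against 1250.0, 1397 and 1297 CPM (log2 fold change 1.41 ± 0.32, adjusted p = 0.144). The shares of all genes called by DESeq2 or with a library left out are not given here. The named genes were those of smallest p among genes whose groups did not overlap, so that lack of overlap was set by the choice. These comparisons share their naïve libraries with the high-dose one. Side by side, the log2 fold changes of *Tnni3* were 0.60, 1.02 and 1.23 in Ahr-/-, low-dose and high-dose females, and those of *Trim63* -0.20, -0.16 and -0.59. *Tpm2* was 8.65, 8.09 and 7.44 CPM in Ahr-/- libraries, below all 3 naïve ones, in contrast to both doses.

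The doses were also compared directly in female ventricle. No gene of 36 passed (0% of all 13994 genes did; edgeR), 0 reached an unadjusted p under 0.05 where 4.48% of all genes did, and DESeq2 called 0. *Des* was the only gene of the 36 whose high-dose and low-dose libraries did not overlap in CPM, at 1420.1, 1182 and 1149 CPM at the high dose and 1111, 969 and 1089 CPM at the low dose (0.22 ± 0.21, adjusted p = 0.898). The share of all genes without overlap is not given here, so this does not set *Des* apart. *Trim63* was at 251, 271 and 233 against 425, 414 and 204 CPM (-0.44 ± 0.23, adjusted p = 0.895), 1 low-dose library being below all 3 high-dose ones. A difference between the doses was therefore not shown for any gene.

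In male ventricles 0 genes passed in any of the 3 comparisons (0% of all genes in each). At an unadjusted p under 0.05, 3 were higher and 1 lower of 36 in Ahr-/- males (4.23% of all genes), 6 higher and 3 lower at the low dose (13.9%), and 0 higher and 1 lower at the high dose (9.19%); DESeq2 called 0, 3 and 1. In Ahr-/- males, *Myot* was at 236, 257 and 228 CPM against 152, 164 and 102 CPM (log2 fold change 0.82 ± 0.28, adjusted p = 0.827) and *Cryab* was at 1605, 1269 and 968 CPM against 755, 947 and 878 CPM (log2 fold change 0.65 ± 0.32, adjusted p = 0.827). At the low dose, *Nebl* was at 62.1, 55.1 and 76.4 CPM against 229, 175 and 118 CPM (log2 fold change -1.39 ± 0.33, adjusted p = 0.29) and *Tcap* was at 1554, 1704 and 1579 CPM against 422, 1003 and 708 CPM (log2 fold change 1.24 ± 0.35, adjusted p = 0.29). All 3 male low-dose ventricle libraries went against their labels, so that comparison could not be run without them. At the high dose, *Nebl* was at 19.1, 54.1 and 59.0 CPM against 229, 175 and 118 CPM (log2 fold change -2.02 ± 0.47, adjusted p = 0.525) and *Xirp2* was at 705, 546 and 403 CPM against 823, 1129.9 and 751 CPM (log2 fold change -0.68 ± 0.38, adjusted p = 0.568). All 3 comparisons share the naïve libraries 33, 34 and 53. Library 53 held *Myl4* at 1378 CPM and went against its sex. The ventricular markers summed to 35466 CPM in library 33 and 13315 CPM in library 34. With such a reference, 0 calls do not show that nothing changed. Leaving out the libraries against their labels gave 5 called genes at the high dose and 1 in Ahr-/- males, in fits of fewer libraries. Libraries up to 48 alone gave 5, 2 and 1 at the high dose, at the low dose and in Ahr-/- males. The shares of all genes called in these refits and by DESeq2 are not given here.

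Whether an effect differed between the sexes was tested as an interaction in each chamber and condition, on 12 libraries each. In the 9 tests 0 genes passed (0% of all genes in each; edgeR, the tool used for these). At an unadjusted p under 0.05 there were 0 of 37 or 38 genes in the right atrium (where 4.53%, 1.19% and 1.77% of all genes reached it in Ahr-/-, low-dose and high-dose mice), 5, 0 and 0 of 37 in the left atrium (3.31%, 0.926% and 2.79%), and 0, 0 and 1 of 37 in the ventricles (2.74%, 0.929% and 4.53%). The 1 was *Myh7b* at the high dose (1.54 ± 0.47 higher in females than in males, adjusted p = 0.952): it was 15.9, 19.5 and 14.6 CPM in high-dose and 20.3, 31.4 and 14.8 CPM in naïve male ventricles. Without the libraries against their labels, *Myh7b* (1.73 ± 0.42, adjusted p = 0.035) and *Trim63* (-1.16 ± 0.27, adjusted p = 0.0273) passed, and *Trim63* alone passed without male high-dose library 65 (-1.31 ± 0.31, adjusted p = 0.0365).

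**Figure D3:**
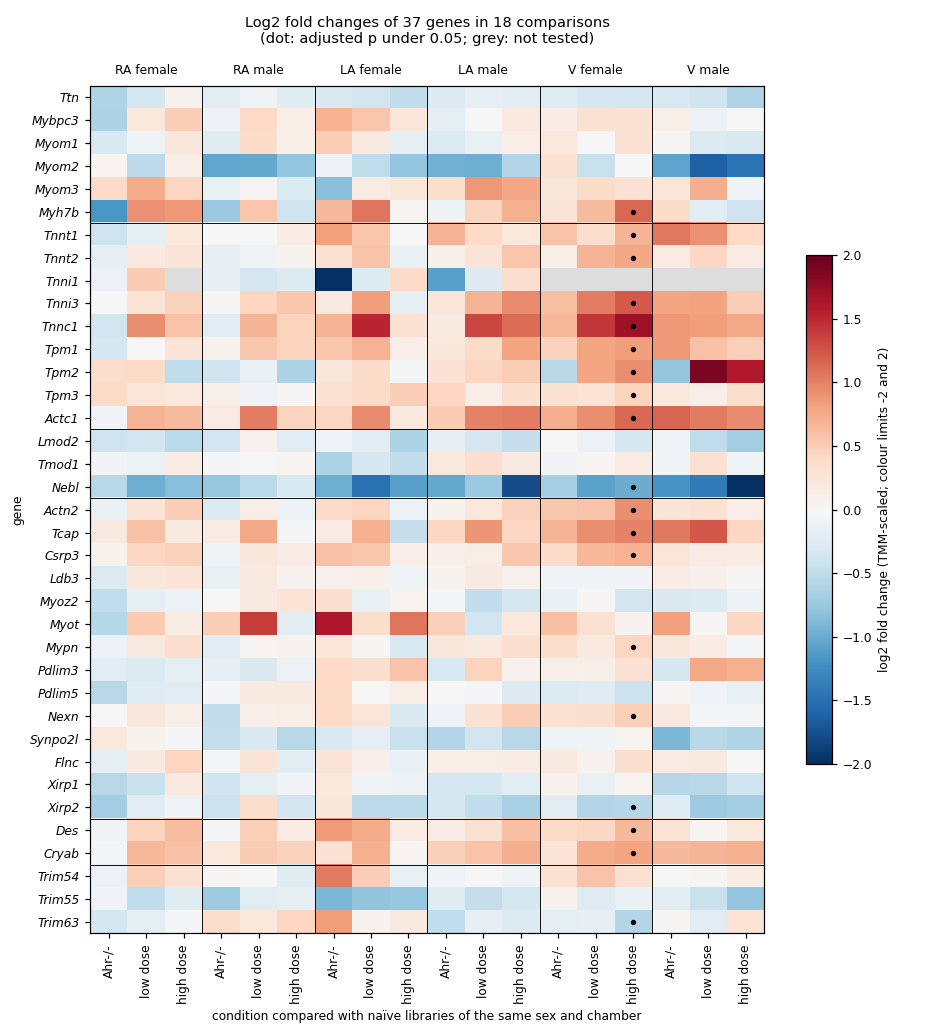
Log2 fold changes of 37 genes (rows, grouped by role) in the 18 comparisons with naïve libraries of the same sex and chamber (columns), from red (higher) to blue (lower) with colour limits at -2 and 2; RA is the right atrium, LA the left atrium and V the ventricles. A dot marks an adjusted p under 0.05, which is met by 19 genes in high-dose female ventricle and by none elsewhere, grey marks genes not tested, and *Myoz1*, never tested, is left out.

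In the right atrium 0 genes passed in any of the 6 comparisons, by edgeR or DESeq2 (0% of all genes in each by edgeR). At an unadjusted p under 0.05, with the share of all genes in brackets, there were 0 higher and 1 lower of 37 in Ahr-/- libraries (5.51%), 0 higher and 1 lower of 37 in low-dose libraries (4.27%) and 0 higher and 1 lower of 36 in high-dose libraries (3.91%) of females, and 0 higher and 4 lower of 37 in Ahr-/- libraries (5.12%), 2 higher and 1 lower of 37 in low-dose libraries (4.41%) and 0 higher and 1 lower of 37 in high-dose libraries (5.41%) of males. In Ahr-/- females, *Xirp1* was at 92.1, 139 and 114 CPM against 159.6, 146 and 159.9 CPM (log2 fold change -0.56 ± 0.22, adjusted p = 0.817). This gene, whose product binds actin at the intercalated disc, was the only one of the 37 without overlap. The share of all genes without overlap is not given here. At the low dose in females, *Nebl* was at 90.8, 80.9 and 62.7 CPM against 219, 161 and 94.5 CPM (log2 fold change -0.98 ± 0.28, adjusted p = 0.974) and *Xirp1* was at 67.3, 137 and 123 CPM against 159.6, 146 and 159.9 CPM (log2 fold change -0.45 ± 0.33, adjusted p = 0.974). At the high dose in females, *Cryab* was at 1290.3, 1043 and 1233 CPM against 887, 838 and 783 CPM (log2 fold change 0.58 ± 0.29, adjusted p = 0.973) and *Des* was at 1054, 962 and 1290.2 CPM against 625, 875 and 744 CPM (log2 fold change 0.62 ± 0.34, adjusted p = 0.973). In female right atrium, naïve library 4 and high-dose library 11 held *Myl4* at 10.3 and 16.8 CPM, the level of ventricle libraries. Libraries 50, 56, 62 and 68 went against their sex. Among the naïve and high-dose ones only 3 and 12 matched their labels, and no refit without the others is given here.

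Right atria of Ahr-/- males had lower values of *Trim55*, a ligase gene related to *Trim63*, and of *Myh7b*: *Trim55* was at 49.3, 49.7 and 54.1 CPM against 77.7, 103 and 64.9 CPM (log2 fold change -0.71 ± 0.22, adjusted p = 0.821) and *Myh7b* was at 9.35, 5.82 and 9.38 CPM against 14.3, 15.9 and 10.2 CPM (log2 fold change -0.74 ± 0.30, adjusted p = 0.821). At the low dose in males, *Myot* was at 185, 132 and 153 CPM against 29.4, 97.4 and 59.2 CPM (log2 fold change 1.38 ± 0.40, adjusted p = 0.942), and *Cryab* was at 1176, 1078 and 1165 CPM against 570.0, 916 and 978 CPM (log2 fold change 0.51 ± 0.27, adjusted p = 0.942). *Myot* encodes myotilin, a Z-disc protein that bundles actin. At the high dose in males, *Tpm2* was at 66.9, 44.5 and 34.4 CPM against 92.5, 72.6 and 71.5 CPM (log2 fold change -0.64 ± 0.22, adjusted p = 0.892) and *Cryab* was at 1094, 995 and 1128 CPM against 570.0, 916 and 978 CPM (log2 fold change 0.46 ± 0.30, adjusted p = 0.908).

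In the left atrium 0 genes passed by edgeR in any of the 6 comparisons (0% of all genes in each), while DESeq2 called 5 in low-dose females and 1 in high-dose males. The share of all genes called by DESeq2 is not given here. At an unadjusted p under 0.05 there were 7 higher and 4 lower of 37 in Ahr-/- libraries (13.7%), 6 higher and 3 lower of 37 in low-dose libraries (17.6%) and 1 higher and 2 lower of 37 in high-dose libraries (8.42%) of females, and 0 higher and 1 lower of 37 in Ahr-/- libraries (3.52%), 0 higher and 0 lower of 37 in low-dose libraries (1.6%) and 0 higher and 1 lower of 37 in high-dose libraries (11.4%) of males. In Ahr-/- females, *Tnni1* was at 0.218, 0.299 and 0.622 CPM against 1.75, 1.30 and 2.21 CPM (log2 fold change -2.10 ± 0.60, adjusted p = 0.359) and *Trim63* was at 315, 403 and 449 CPM against 188, 219 and 278 CPM (log2 fold change 0.83 ± 0.24, adjusted p = 0.359); 2 of these 3 Ahr-/- libraries, 23 and 24, held *Myl4* at the level of ventricle libraries. Leaving out library 58 gave 2 called genes in that comparison, and libraries up to 48 alone, which were 23 and 24 against 2 naïve ones, gave 9. These counts too stand without the share of all genes. At the low dose in females, *Nebl* was at 54.0, 77.3 and 44.3 CPM against 155, 241 and 139.7 CPM (log2 fold change -1.49 ± 0.26, adjusted p = 0.153) and *Tnnc1* was at 2975, 2413 and 4155 CPM against 1396, 1032 and 1279 CPM (log2 fold change 1.52 ± 0.32, adjusted p = 0.153). At the high dose in females, *Nebl* was at 118, 72.7 and 66.8 CPM against 155, 241 and 139.7 CPM (log2 fold change -1.08 ± 0.29, adjusted p = 0.592) and *Myom2* was at 931, 1012 and 997 CPM against 1635, 1961 and 1396 CPM (log2 fold change -0.78 ± 0.24, adjusted p = 0.592).

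Left atria of Ahr-/- males differed most in *Myot* and *Trim63* among genes without overlap: *Myot* was at 158, 174 and 203 CPM against 119, 117 and 131 CPM (log2 fold change 0.48 ± 0.25, adjusted p = 0.928) and *Trim63* was at 249, 231 and 311 CPM against 403, 327 and 352 CPM (log2 fold change -0.49 ± 0.27, adjusted p = 0.928). At the low dose in males, *Myoz2* was at 413, 576 and 387 CPM against 765, 670.4 and 584 CPM (log2 fold change -0.49 ± 0.29, adjusted p = 0.999) and *Xirp2* was at 540.1, 599.9 and 598 CPM against 874, 1157 and 654 CPM (log2 fold change -0.50 ± 0.35, adjusted p = 0.999). At the high dose in males, *Nebl* was at 43.7, 48.8 and 45.7 CPM against 256, 166 and 94.8 CPM (log2 fold change -1.77 ± 0.29, adjusted p = 0.369) and *Cryab* was at 1793, 1176 and 1247 CPM against 620.4, 881 and 1072 CPM (log2 fold change 0.73 ± 0.39, adjusted p = 0.503). The *Nebl* libraries of that last group lay within a narrow range, far below the naïve ones. In all 4 groups, 1 library of male left atrium, naïve included, held *Myl4* at the level of ventricle libraries. Without these 4 libraries 0 of 37 genes passed edgeR's test in any of the 3 comparisons, and 8, 5 and 9 reached an unadjusted p under 0.05 in Ahr-/-, low-dose and high-dose males. The shares of all genes in these refits are not given here, so the counts cannot be set against them.

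*Nebl* was the one gene of the 38 whose log2 fold change was negative in each of the 18 comparisons, from -2.02 to -0.31, with an unadjusted p under 0.05 in 14 and no overlap in 9. Of all 13488 genes tested in the 18 comparisons, 6.31% were below 0 in each. The share of all genes with as many small p-values or as little overlap is not given here. In high-dose female ventricle *Nebl* fell by less with the GC trend removed (-0.52 ± 0.12), a fit not given here for the other comparisons. The 18 naïve libraries held 94.5 to 256 CPM (median 164), and the 54 others 19.1 to 194 CPM (median 73.3). In male ventricle the values were 229, 175 and 118 CPM in naïve, 53.0, 47.4 and 137 CPM in Ahr-/-, 62.1, 55.1 and 76.4 CPM in low-dose and 19.1, 54.1 and 59.0 CPM in high-dose libraries. The last value of the naïve, Ahr-/- and high-dose sets and all low-dose values come from libraries against their labels. The 3 comparisons within a sex and chamber share their naïve libraries, so the 18 are not independent.

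*Cryab* lay on the other side. Its log2 fold change was above 0 in 17 of 18 comparisons, up to 0.79, and below 0 in right atria of Ahr-/- females (-0.04). Its groups did not overlap in 10, and it reached an unadjusted p under 0.05 (edgeR) in 4. The 18 naïve libraries held 570.0 to 1072 CPM (median 884) and the 54 others 617 to 2029.6 CPM (median 1176). *Actc1*, *Tnni3*, *Tpm1*, *Tpm3* and *Csrp3* were likewise above 0 in 17 of 18, and *Ttn* and *Trim55* below 0 in 17. The shares of all genes with such counts of signs or of groups without overlap are not given here. The comparisons share naïve libraries, as for *Nebl*. *Myom2*, an M-band protein gene, was below 0 in all 9 male comparisons, where 1 naïve library in each chamber stood far above its companions: the naïve values were 3942, 1909 and 1077 CPM in right atrium, 3991, 1863 and 955 CPM in left atrium and 6213, 2172 and 1222 CPM in ventricles. The highest of the 54 libraries of other groups held 2020.2 CPM.

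Between chambers, all 72 libraries were fitted together with condition and sex as a covariate. Against the right atrium, ventricles had 24 of 37 genes higher and 7 lower (14.7% and 17.1% of all 15824 genes). Against the left atrium, 6 were higher and 5 lower (7.77% and 11.1%). Between the atria 0 of 37 passed (0.00632% of all genes, 1 gene), 2 reached an unadjusted p under 0.05, where 2.9% of all genes did, and DESeq2 called 0. The right and left labels of the atria were not checked, so this does not show that the atria are alike. Without the 19 libraries against their labels, the counts were 28 higher and 8 lower of 38 against the right atrium (23.5% and 27.8% of all genes) and 25 higher and 7 lower against the left (22.5% and 27%). Scaling by library size alone gave 13 higher and 7 lower against the right atrium, and the 18 naïve libraries alone gave 0 against either atrium (edgeR), where 11 and 3 genes reached an unadjusted p under 0.05. Libraries up to 48 alone gave 27 against the left atrium. For library size, naïve libraries and libraries up to 48, the shares of all genes are not given here. Libraries of different chambers come from the same hearts, and the labels do not say which, so the standard errors take no account of it.

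Of the genes lower in the ventricles, *Tnni1* and *Tpm2* are isoforms best known from skeletal muscle. *Tnni1*, the slow skeletal and fetal troponin I, had lowest, median and highest values of 0, 1.04 and 4.58 CPM in right atrium, 0, 1.02 and 4.09 CPM in left atrium and 0, 0.233 and 1.71 CPM in ventricles (-1.67 ± 0.47, adjusted p = 0.00476 for ventricle against right atrium). In 11 of 24 ventricle and 9 of 48 atrial libraries it was at or under 3 counts, which is 0.104 to 0.253 CPM. *Pdlim3*, the actinin-associated LIM protein, had lowest, median and highest values of 16.6, 50.0 and 81.6 CPM in right atrium, 7.94, 35.0 and 85.5 CPM in left atrium and 6.06, 13.9 and 55.4 CPM in ventricles (-1.32 ± 0.20, adjusted p = 3.51e-06). *Tpm2* had lowest, median and highest values of 14.4, 69.8 and 137 CPM in right atrium, 8.81, 65.0 and 125 CPM in left atrium and 5.54, 17.4 and 147 CPM in ventricles (-1.28 ± 0.29, adjusted p = 0.000805). *Myom3* had lowest, median and highest values of 2.98, 5.81 and 7.73 CPM in right atrium, 1.86, 4.19 and 10.8 CPM in left atrium and 1.82, 2.99 and 6.29 CPM in ventricles (-0.58 ± 0.13, adjusted p = 0.00077). All 4 were also lower than in left atrium. The ranges overlapped through libraries against their labels: without those, *Pdlim3* was 6.06 to 15.6 CPM in 17 ventricle libraries and at least 22.8 CPM in 36 atrial ones, and *Tpm2* 5.54 to 26.8 against at least 32.5 CPM, with no overlap for either. *Tpm3*, *Tmod1* and *Synpo2l* were the others called lower than in right atrium. *Myoz1*, the fast-muscle relative of *Myoz2*, could be tested only without those 19 libraries (-1.85 ± 0.57, adjusted p = 0.00585); 16 of 24 ventricle libraries and 25 of 48 atrial ones were at or under 3 counts.

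Of the 10 genes of largest chamber difference, 6 were higher in the ventricles. *Myh7b* had lowest, median and highest values of 1.88, 10.5 and 39.5 CPM in right atrium, 0.225, 16.6 and 42.9 CPM in left atrium and 13.6, 20.2 and 43.2 CPM in ventricles (1.04 ± 0.31, adjusted p = 0.00805). *Myot* had lowest, median and highest values of 7.61, 49.1 and 222 CPM in right atrium, 4.89, 120.3 and 268 CPM in left atrium and 52.1, 148 and 306 CPM in ventricles (0.95 ± 0.35, adjusted p = 0.0327). *Tnnc1* had lowest, median and highest values of 584, 1349 and 4800.4 CPM in right atrium, 835, 1617 and 6902 CPM in left atrium and 1141, 2253 and 4548 CPM in ventricles (0.68 ± 0.22, adjusted p = 0.0144). For all 3 the chambers overlapped widely and the difference from left atrium did not pass. *Mybpc3*, cardiac myosin-binding protein C, had lowest, median and highest values of 894, 1835 and 3356 CPM in right atrium, 994, 2130.2 and 3155 CPM in left atrium and 1343, 2729 and 3554 CPM in ventricles (0.64 ± 0.14, adjusted p = 0.000446, and 0.46 ± 0.14, adjusted p = 0.0161 against left atrium). *Trim54*, a ligase gene of the same family as *Trim63*, had lowest, median and highest values of 49.6, 94.7 and 147 CPM in right atrium, 44.4, 107 and 229.5 CPM in left atrium and 49.8, 119 and 199.9 CPM in ventricles (0.57 ± 0.14, adjusted p = 0.00204). *Ttn* had lowest, median and highest values of 2353, 4651 and 9418 CPM in right atrium, 2889, 5065 and 10429 CPM in left atrium and 3628, 6285 and 12561 CPM in ventricles (0.56 ± 0.17, adjusted p = 0.00712). With the 19 libraries left out the ventricular difference of *Mybpc3* became 1.07 ± 0.12, adjusted p = 5.1e-10 and that of *Myh7b* 1.70 ± 0.39, adjusted p = 0.000278.

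**Figure D4:**
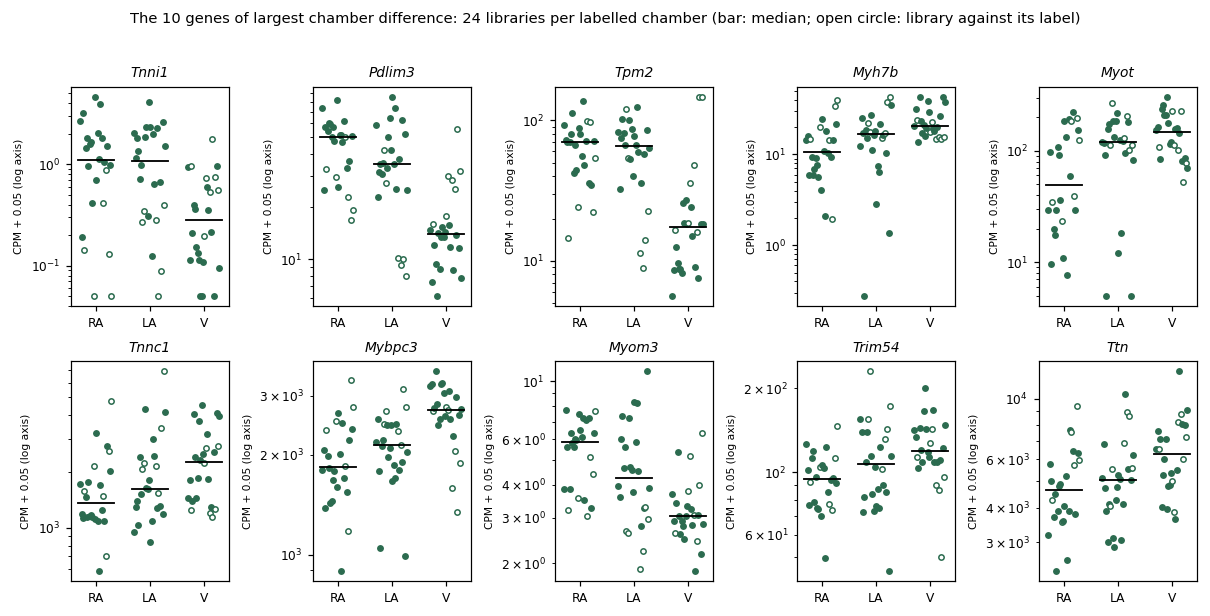
CPM (plus 0.05, on a log axis) of the 10 genes with the largest called difference between ventricles and an atrium, in 24 libraries of each labelled chamber, with the median as a bar and open circles for libraries against their labels. *Pdlim3* and *Tpm2* have ventricular medians of 13.9 and 17.4 CPM, below both atria, and the open circles sit at the level of the other kind of chamber in many of these panels.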

How the data were processed

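RNA of dissected right atria, left atria and ventricles was sequenced from mice of both sexes under 4 conditions, 3 libraries a group and 72 in all. Per the study's methods, the authors made poly(A) libraries with a TruSeq RNA kit, read 50 bases from one end, exported the reads with CASAVA 1.8, used TopHat for alignment (mm10) and Bioconductor code to count reads that fell on coding regions. They deposited 1 table of raw counts for 24237 Entrez genes. The annotation release, the use of strand and the treatment of reads with several matches are not given in the sources used here, and genes with near-identical copies (*Actc1*, *Tpm3*, *Myh6*, *Myh7*) are therefore uncertain. Groups were taken from the labels. Symbols were given to 24155 genes by Entrez identifier, and the 82 without one (3.91% of counts) stayed in the fits. Totals were 11873417 to 28789382 counts a library (median 19231739), so 3 counts correspond to 0.104 to 0.253 CPM. No 2 libraries of a group differed by as little as counting noise.

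Genes were filtered (filterByExpr, minimum count 10, minimum total 15) and tested in R 4.3.3 with edgeR 4.0.16 (TMM, robust quasi-likelihood), with limma 3.58.1 for support and DESeq2 1.42.0 as an alternative. Adjusted p-values are Benjamini-Hochberg values over all genes tested. Each condition was compared with naïve libraries of the same sex and chamber (18 comparisons), the doses in female ventricle with each other, the chambers over all libraries, and the sexes by interaction (9 tests). A library was set against its label where *Myl4* fell on the wrong side of 100 CPM or sex-linked genes on the wrong side of 10 CPM. The code was tested on simulated data. Given with values per library were the genes called in a comparison (of 19, the 15 of smallest p by rule, and the other 4 beside them), or, with none called, the 2 of smallest p among those whose groups did not overlap, and the 10 of largest called chamber difference. Other genes named were chosen after their values were seen. The genes and lists were chosen with earlier results of these data known.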

Additional observations from a re-analysis of the deposited data

How the results depend on the processing

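No gene whose values are given in full changed direction where it had been called. Between chambers, where its values are not given in full, *Tnni3* did change direction. Called higher in ventricle than right atrium at 0.38 (adjusted p = 0.0494), it lay at -0.06 (adjusted p = 0.915) with naïve libraries alone. In high-dose female ventricle, where 19 genes were called, one fit of all 4 conditions gave 7, and leaving out each library in turn gave 14 to 22. In the other comparisons with naïve libraries, where edgeR called 0, DESeq2 called 5 genes in low-dose female left atrium, 1 in high-dose male left atrium, 1 in Ahr-/- and 8 in low-dose female ventricle, and 3 and 1 in low-dose and high-dose male ventricle. Libraries 1 to 48 alone gave 9 in Ahr-/- female left atrium and 1, 2 and 5 in Ahr-/-, low-dose and high-dose male ventricle. Without libraries against their labels there were 1 and 5 in Ahr-/- and high-dose male ventricle. Leaving out 1 library gave 0 to 2 in Ahr-/- female left atrium (2 without library 58), 0 to 5 in Ahr-/- female ventricle (5 without 39), 0 to 2 in low-dose female ventricle (2 without 48) and 0 in all other comparisons of 2 groups. For the interaction at the high dose in ventricles it gave 0 to 1 (1 without 65), libraries 1 to 48 gave 1 and libraries matching their labels 2. Of chamber differences, ventricle against right atrium went from 31 called genes to 20 with library size alone and 0 with naïve libraries alone, and ventricle against left atrium from 11 to 0 with naïve libraries alone, 27 with libraries 1 to 48 and 32 without those against their labels. The cause of these shifts was not tested. For most of these refits and for DESeq2, the share of all genes called in the same fit is not given here. Their counts therefore do not set these genes apart from the rest. For single genes, 905 values kept their side of the threshold, 25 gained a call and 62 lost one. Leaving out each library was not run for the other 8 interactions, and low-dose male ventricle could not be run without its libraries against their labels. No paired analysis was possible because the labels give each library its own number and do not say which chambers came from 1 heart. Low counts limited *Tnni1* and *Myoz1*, and with 3 libraries a group small changes may not be detectable.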
